A study of Mus musculus with 2 samples.

Results

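Chromatin occupancy by the thyroid hormone receptor TRα1 was examined at the nuclear genes of the mitochondrial respiratory chain and the ATP synthase. The genes were taken by symbol from the basic GENCODE annotation of the mouse genome GRCm38. They comprised the autosomal protein-coding genes whose symbols start with Ndufa (Ndufaf included), Ndufb, Ndufc, Ndufs, Ndufv, Sdh, Uqcr, Cox4 to Cox8 or Atp5, together with Cyc1 and Cycs. This gave 97 of 20807 autosomal protein-coding genes, with 96 symbols, since Atp5o is annotated at 2 positions. The 3 genes of these families on chromosome X were left out. A TR binding site (TRBS) belonged to a gene when its summit, the position of the highest pileup of fragments, lay within 30 kb of the transcription start site (TSS). By this rule 48 of the 5107 deposited TRBS lay near 33 of the 97 genes, and each of them lay near 1 of these genes only.

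The material was brown adipose tissue of male C57BL/6J mice aged 8 to 12 weeks, which carried TRα1 with a GS tag in brown adipocytes only. The mice had received propylthiouracil, an inhibitor of thyroid hormone synthesis, in the food for 2 weeks and then thyroid hormone over 24 h. There was 1 ChIP library, made per the labels with an antibody against the receptor, and 1 input library from the same kind of tissue without antibody, so both carried the tagged allele and both treatments. No replicate, no untagged control and no sample without hormone was analysed here, so that no difference between conditions could be tested. Ucp1, the defining gene of brown adipocytes, had 5 TRBS within 30 kb, with 27 to 362 ChIP fragments at the summit.

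The respiratory chain passes electrons from NADH and succinate through complexes I, II and III, cytochrome c and complex IV to oxygen, and pumps protons out of the matrix on the way. The ATP synthase lets protons flow back to make ATP. In brown adipocytes the uncoupling protein UCP1 offers another way back, which releases heat, and these cells are rich in respiratory chain but hold little ATP synthase, which has been tied to low expression of the c subunit gene Atp5g1. TRα1 typically occupies DNA as a heterodimer with RXR at a DR4 element, a direct repeat of the half-site AGGTCA with a spacer of 4 bases.

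Of the 48 TRBS, 15 held a DR4 on one strand or the other, when up to 2 of the 12 bases of its half-sites were allowed to differ. The following elements are shown because they are the least altered DR4 of the genes (Ndufs4, Atp5k, Atp5d, Ndufc2) or serve as examples with 2 mismatches between genes (Cox7a1, Ndufb3). Capitals mark the 2 half-sites, 10 bases of flank stand on either side, and all coordinates are GRCm38.
Ndufs4, chr13:114405016-114405051, plus strand, 0 mismatches: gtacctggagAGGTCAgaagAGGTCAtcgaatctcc
Atp5k, chr5:108431303-108431338, plus strand, 1 mismatch: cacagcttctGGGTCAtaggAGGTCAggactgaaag
Atp5d, chr10:80160987-80161022, plus strand, 1 mismatch: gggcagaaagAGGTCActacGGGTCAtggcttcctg
Atp5d, chr10:80147642-80147677, minus strand, 1 mismatch: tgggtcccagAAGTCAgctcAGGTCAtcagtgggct
Ndufc2, chr7:97423924-97423959, minus strand, 1 mismatch: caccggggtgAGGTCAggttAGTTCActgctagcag
Cox7a1, chr7:30203032-30203067, plus strand, 2 mismatches: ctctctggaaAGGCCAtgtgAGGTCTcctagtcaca
Ndufb3, chr1:58610327-58610362, plus strand, 2 mismatches: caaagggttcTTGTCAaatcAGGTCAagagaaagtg

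The Ndufs4 element was the only DR4 without a mismatch, and it lay 115 bp from the summit of a weak TRBS with 10 fragments, of which 36.7% was masked as repeat sequence. The Atp5k element lay 3 bp from the summit of a TRBS with 58 fragments. In Atp5d the elements lay 12 bp and 770 bp from their summits, in Ndufc2 82 bp, in Cox7a1 24 bp and in Ndufb3 37 bp.

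Of the 11 TRBS within 1 kb of a TSS of the set, those of Cox5a and Atp5g3 held a DR4. The 121 bases around the summit are shown for 3 genes with a TRBS at or close to their own start: Atp5g3, which shared the highest fragment count with Ndufc2, Cycs, the sole cytochrome c gene of the set, and Atp5j, whose start faces that of Gabpa. They are written on the strand of the gene, and capitals mark the half-site AGGTCA or the cAMP response element TGACGTCA on either strand.
Atp5g3, chr2:73911075-73911195, minus strand: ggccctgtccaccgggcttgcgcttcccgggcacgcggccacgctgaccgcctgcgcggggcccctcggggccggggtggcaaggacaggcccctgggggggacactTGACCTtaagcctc
Cycs, chr6:50566639-50566759, minus strand: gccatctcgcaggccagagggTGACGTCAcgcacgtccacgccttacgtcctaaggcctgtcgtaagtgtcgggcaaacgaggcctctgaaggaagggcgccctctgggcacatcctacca
Atp5j, chr16:84834602-84834722, minus strand: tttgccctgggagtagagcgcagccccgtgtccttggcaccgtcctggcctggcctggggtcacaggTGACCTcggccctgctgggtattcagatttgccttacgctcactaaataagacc

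The window of Atp5g3 held 1 half-site, that of Atp5j 1 half-site, and that of Cycs no half-site but a cAMP response element. None of these 3 windows held a DR4. The Atp5g3 TRBS held a DR4 with 2 mismatches outside the window, 110 bp from the summit. The whole Cycs TRBS also held the NRF1 core GCGCATGC, which was present in 2 of the 48 TRBS (Cycs and Atp5g2) and in 0.814% of the 5035 autosomal TRBS.

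The first question was how often the genes lay near a TRBS. A TRBS was found within 30 kb of 33 of 97 genes (34.0%, 95% Wilson interval 25.4 to 43.9), against 17.3% of all autosomal protein-coding genes. The share was thus 1.96 times that of all genes, and 17.3% lay below the interval of the genes. All intervals given here cover counting error only, and neither genes nor TRBS are replicates. Within 1 kb of the TSS a TRBS was found for 11 of 97 genes (11.3%, 6.45 to 19.2), against 3.13% of all genes. More than 1 TRBS was found for 7 of 97 genes (7.22%), against 4.77% of all genes, although among genes with a TRBS the share with more than 1 was 21.2% here and 27.5% in all. Of the 97 genes, 64 had no TRBS, 26 had 1, 5 had 2, Ndufc2 had 4 and Atp5d had 8.

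The share was higher than that of all genes at each distance limit examined. It was 19.6% against 5.82% within 5 kb, 22.7% against 8.38% within 10 kb, 44.3% against 24.9% within 50 kb and 64.9% against 39.8% within 100 kb. The ratio therefore fell with distance, from 2.71 at 10 kb to 1.63 at 100 kb. These genes lay in denser surroundings than most, with a median of 2 other protein-coding TSS within 30 kb against 1 for all genes. Among genes with 0 or 1 such neighbour the share was 37.0% (17 of 46, 24.5 to 51.4) against 15.3%. With 2 or 3 it was 30.8% (12 of 39, 18.6 to 46.4) against 19.2%. With 4 or more it was 33.3% (4 of 12, 13.8 to 60.9) against 27.1%. The all-gene share lay below the interval for 0 or 1 neighbour and inside the others.

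**Figure D1:**
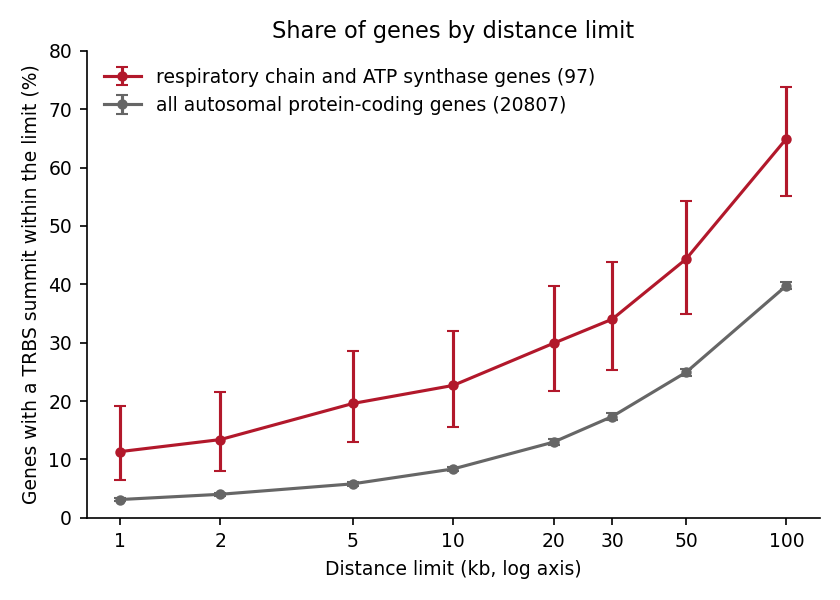
Percentage of genes with a TRBS summit within a distance limit of the TSS (log axis, kb), for the 97 respiratory chain and ATP synthase genes (red) and all 20807 autosomal protein-coding genes (grey). Bars are 95% Wilson intervals; the red points run from 11.3% at 1 kb to 64.9% at 100 kb and lie above the grey ones, which run from 3.13% to 39.8%.

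Many of these TRBS lay closer to another gene. When each TRBS was given to its nearest TSS alone, 14 of 97 genes (14.4%, 8.80 to 22.8) kept a TRBS, against 10.2% of all genes, and this value lay inside the interval. The gene of the set was the nearest in 16 of 48 cases (33.3%, 21.7 to 47.5), while over all genes the share was 53.6% of 5356 pairs of a gene and a TRBS. Ndufc2 and Atp5d together supplied 12 of the 48 TRBS, and none of these 12 had Ndufc2 or Atp5d as its nearest gene. Without them the share was 44.4% (16 of 36). Near the start, 5 of the 11 genes with a TRBS within 1 kb shared it with another TSS within 1 kb (Ndufa7, Ndufv3, Sdhaf2, Atp5a1 and Atp5j), or 45.5% (21.3 to 72.0), against 19.2% of the 652 such genes in all.

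By complex, the share was 25.0% for complex I subunits (9 of 36), 44.4% for complex III (4 of 9), 35.3% for complex IV (6 of 17) and 38.9% for the ATP synthase (7 of 18), against 17.3% of all genes. The all-gene share lay inside the intervals of complex I subunits (13.8 to 41.1), of their assembly factors (13.7 to 69.4), of complex II subunits and, at its lower end, of complex IV (17.3 to 58.7). It lay below those of complex III (18.9 to 73.3) and the ATP synthase (20.3 to 61.4). It also lay below those of complex II assembly factors (30.1 to 95.4) and of the single cytochrome c gene. With the nearest TSS only, complex III stood at 22.2% (2 of 9) and the ATP synthase at 16.7% (3 of 18), against 10.2% of all genes. With peaks scoring at least 60 complex I subunits stood at 16.7% against 14.6% of all genes, and with at least 100 at 11.1% against 11.8%. None of the 4 subunits of complex II had a TRBS. The intervals of these groups overlapped each other. Factors that assemble the complexes without being part of them had a TRBS in 6 of 12 cases (3 of 8 Ndufaf genes and 3 of 4 Sdhaf genes), or 50.0% (25.4 to 74.6), and subunits in 27 of 85 (31.8%, 22.8 to 42.3), so that the intervals overlapped. Groups follow the gene symbols, and the products of Ndufa4, Ndufa4l2, Ndufab1, Cox7a2l and Atp5s are not subunits of the named complex alone or are placed elsewhere. Without these genes the share of subunits was 32.5% (26 of 80).

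**Figure D2:**
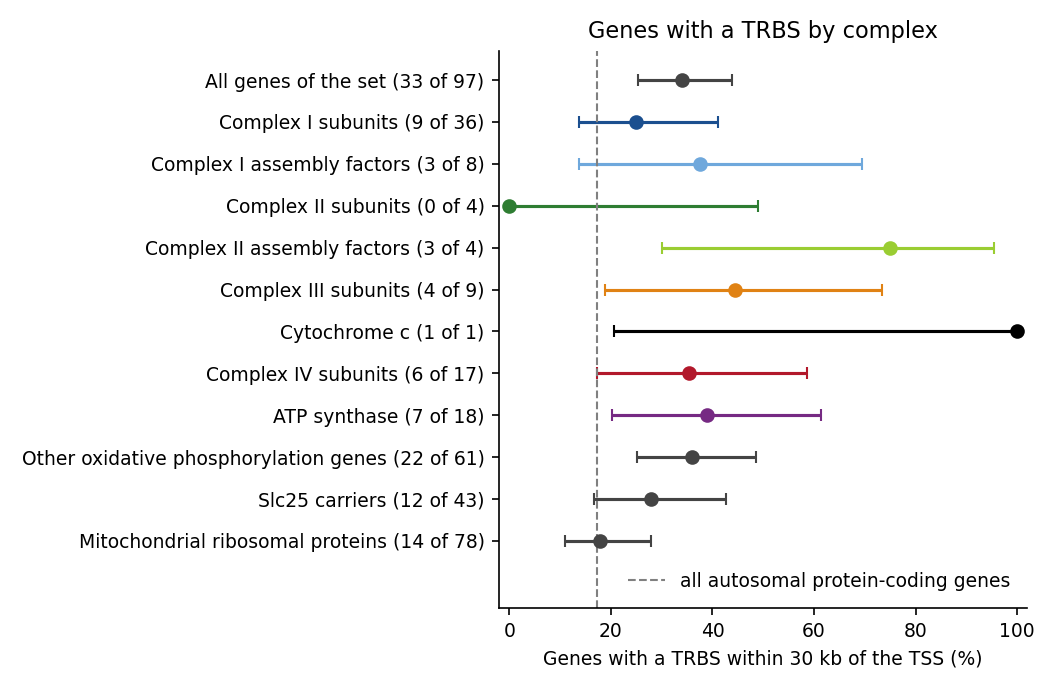
Percentage of genes within 30 kb of a TRBS for each complex and for related mitochondrial gene groups. Points are shares, bars are 95% Wilson intervals, and the dashed line is the share of all autosomal protein-coding genes (17.3%); the group of all 97 genes lies at 34.0%, complex II subunits at 0%, and mitochondrial ribosomal protein genes at 17.9%.

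Complex I takes electrons from NADH. Ndufs4, an accessory subunit of the matrix arm, had a TRBS in its own intron 391 bp downstream of the TSS with 23 fragments (exact Poisson interval 14.6 to 34.5) and a fold of 15.4 over input. The second Ndufs4 TRBS, which held the DR4 shown above, lay 16890 bp upstream and had a fold of 6.93. Ndufs6, also an accessory subunit of the matrix arm, had a TRBS 3382 bp upstream in the 3′ UTR of Mrpl36, with 26 fragments and a DR4 with 2 mismatches 10 bp from the summit. Ndufv3, an accessory subunit of the same arm, had a TRBS of 9 fragments 129 bp upstream, and the TSS of Wdr4 was 6 bp from its summit. The TRBS of Ndufa7 (273 bp downstream, 9 fragments) lay in the promoter of Rps28. These TRBS scored 40 and 57, below the limit of 60 in the study's methods.

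Ndufb3, a subunit of the membrane arm, had an intergenic TRBS 23997 bp downstream with 29 fragments (19.4 to 41.6) and a fold of 15.7, and no other protein-coding TSS was closer. Ndufc2, another subunit of the membrane arm, had 4 TRBS at 18901, 20575, 23856 and 25041 bp downstream, with 60, 88, 58 and 11 fragments and folds of 27.5, 53.8, 40.1 and 4.25. The strongest was at chr7:97420380-97421229. All 4 lay upstream of Thrsp, a thyroid hormone responsive gene of lipogenesis, at 1174 to 7314 bp from its TSS. The remaining complex I subunits with a TRBS were Ndufa2, Ndufab1 and Ndufs5, each with 8 to 13 fragments, more than 9 kb from the TSS and closer to another gene.

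**Figure D3:**
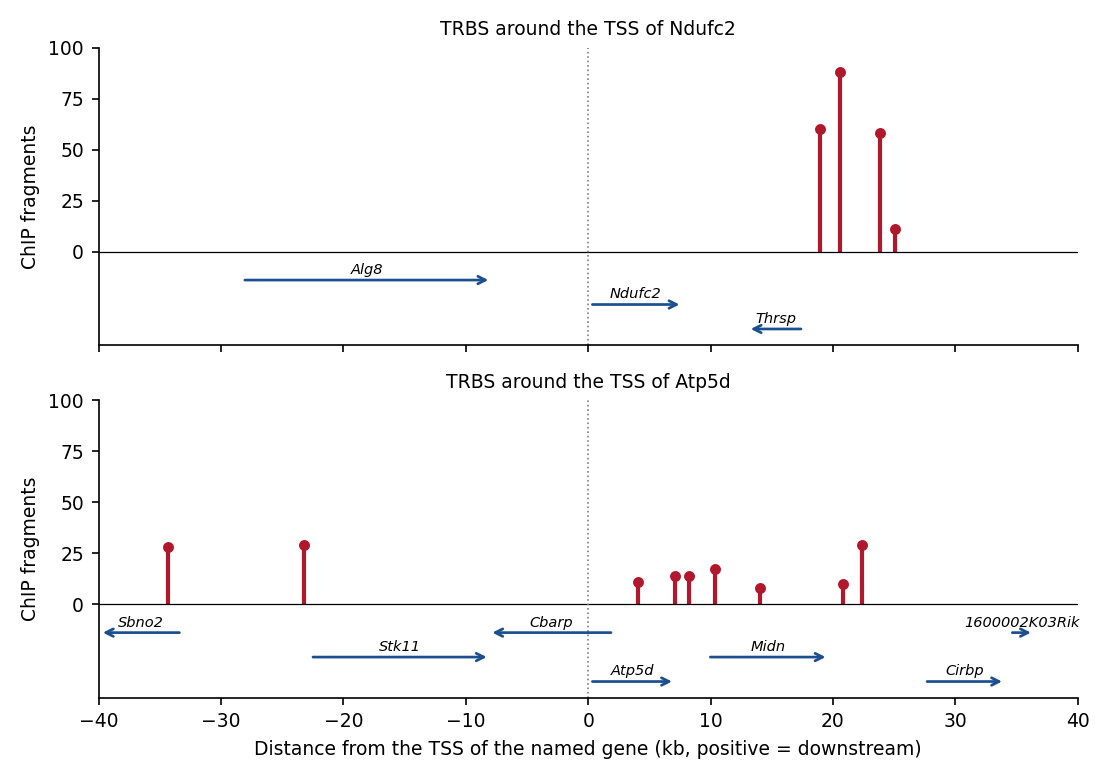
TRBS around the TSS of Ndufc2 (top) and Atp5d (bottom). Red stems give ChIP fragments at each summit, arrows show protein-coding genes from start to end, and the horizontal axis is the distance from the named TSS in kb; the 4 stems near Ndufc2 stand upstream of Thrsp, and of the 8 stems within 30 kb of Atp5d, 1 stands just upstream of Stk11 and the others stand from within Atp5d, past Midn, to 4969 bp before the TSS of Cirbp.

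Of the complex I assembly factors, Ndufaf6 had a TRBS 8944 bp upstream with 23 fragments and was its nearest gene. Ndufaf7, an arginine methyltransferase that modifies a complex I subunit, had a TRBS of 11 fragments 4919 bp upstream in a coding exon of Cebpz, with a DR4 with 2 mismatches 1 bp from the summit. Ndufaf8 had 2 TRBS of 9 and 11 fragments, 26805 and 8019 bp upstream, both closer to Cep131. The other 5 factors had none.

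Complex II oxidises succinate. The nearest TRBS to its 4 subunit genes lay 180 kb from Sdha, 70.0 kb from Sdhb, 309 kb from Sdhc and 44.5 kb from Sdhd. For 4 genes, 0% allowed a share of up to 49.0% (Wilson). Of its assembly factors 3 of 4 had a TRBS (75.0%, 30.1 to 95.4), an interval that overlaps that of the subunits. Sdhaf4, which binds the flavin-carrying subunit, had 34 fragments (23.5 to 47.5) 123 bp upstream of its TSS at chr1:24005486-24005982, the highest count of a TRBS in the promoter of a gene of the set, at an input background of 2.44 and a fold of 10.2. Sdhaf2, which attaches the flavin, had 11 fragments 482 bp downstream in a start region shared with Cpsf7, with a score of 44. Without TRBS scoring below 60, 2 of the 4 assembly factors had one (50.0%). Sdhaf1, which helps to insert iron and sulfur, had 76 fragments (59.9 to 95.1) and a fold of 53.8, but at 29611 bp upstream and closer to Lrfn3. It was also the member TRBS closest to the 30 kb limit, followed by that of Ndufs5 at 27722 bp. Just outside lay a TRBS of Ndufs5 at 30585 bp with 25 fragments and one of Ndufb9 at 31826 bp with 6.

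**Figure D4:**
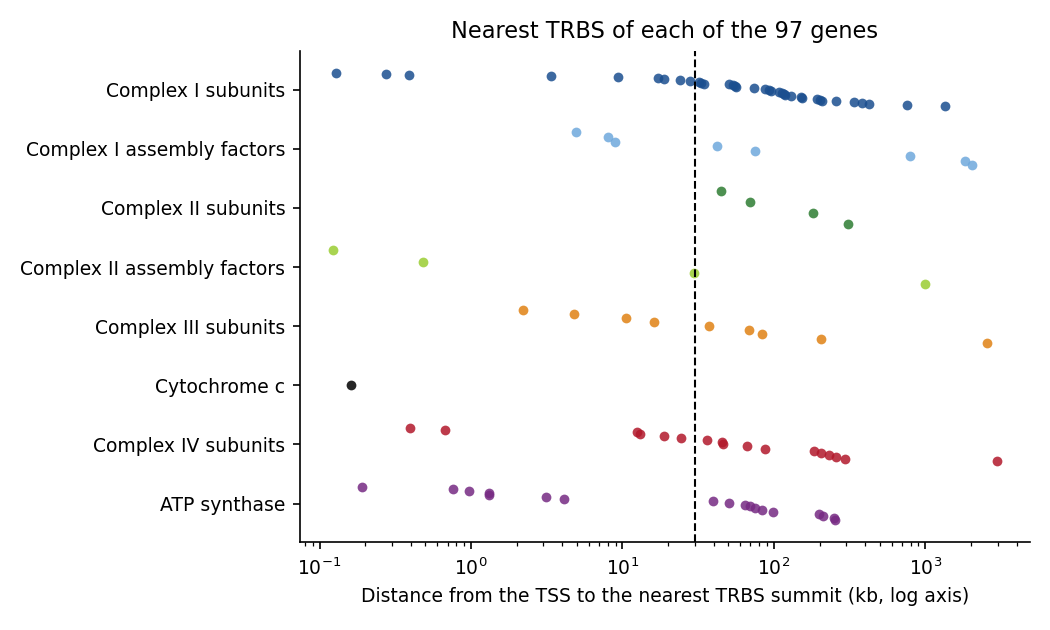
Distance from the TSS to the nearest TRBS summit (kb, log axis) for each of the 97 genes, 1 point per gene, by complex. The dashed line marks 30 kb: 33 points lie to its left, and the 4 complex II subunits lie between 44.5 and 309 kb.

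Complex III passes electrons to cytochrome c. Uqcrc2, a core subunit, had 27 fragments (17.8 to 39.3) 2191 bp downstream in its own intron, with a fold of 14.6. Uqcrc1, the other core subunit, had 15 fragments 10576 bp upstream and was the nearest gene. The small subunit Uqcrq had 30 fragments 4802 bp downstream, closer to Leap2, and 8 fragments 21800 bp upstream, and Uqcr10 had 12 fragments in an intron of Zmat5. Cyc1, cytochrome c1, had its nearest TRBS at 37.4 kb. Cycs, cytochrome c itself, had 15 fragments (8.40 to 24.7) 161 bp upstream in its own promoter (chr6:50566516-50566915), with a fold of 7.97.

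Complex IV reduces oxygen, and several of its subunits exist as isoforms. Cox5a had a TRBS 397 bp downstream in its own intron with 26 fragments (17.0 to 38.1) and a fold of 13.4, and its only DR4 match lay 904 bp from the summit. Cox5b had its nearest TRBS at 183 kb. Of the Cox7a genes, Cox7a1, the isoform of heart and muscle, had an intergenic TRBS 18929 bp downstream. This TRBS had 50 fragments (37.1 to 65.9) and a fold of 35.3, although the TSS of Capns1 was closer at 4262 bp. The widely expressed Cox7a2 had its nearest TRBS at 45.3 kb. Of the Cox8 genes, Cox8b, likewise an isoform of heart and muscle, had 12 fragments 672 bp downstream in its intron and 8 fragments 2350 bp upstream. Cox8a had its nearest TRBS at 66.7 kb and Cox8c at 204 kb.

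Of the remaining isoforms, Cox4i1 and Cox4i2 each had a weak TRBS, of 8 fragments at 24511 bp and 10 fragments at 12406 bp upstream, both closer to other genes. Cox6a1 had its nearest at 87.3 kb, and Cox6a2, likewise an isoform of heart and muscle, had its nearest at 257 kb. Cox6b2, a testis isoform, had 25 fragments at 13136 bp downstream in the promoter of Kmt5c, and Cox6b1 had its nearest at 36.1 kb. Cox7a2l, counted here by its symbol, had its nearest at 295 kb.

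The ATP synthase held the strongest TRBS that lay nearest to a gene of the set. Its c subunit, the rotor ring through which protons pass, is encoded by Atp5g1, Atp5g2 and Atp5g3. At chr2:73910582-73911461, Atp5g3 had 88 fragments (70.6 to 108) 191 bp downstream of the TSS in its own intron, over a background of 1.22 and with a fold of 40.1, and its fragment count ranked 81 in the list. Atp5g2 had 14 fragments (7.65 to 23.5) 1322 bp downstream and a fold of 8.15. Atp5g1 had its nearest TRBS at 252 kb. The 3 genes for the same protein thus ranged from no TRBS within 30 kb to 1 with a count that did not overlap, within counting error, with that of Atp5g2.

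Atp5k, the e subunit of the membrane part, had 58 fragments (44.0 to 75.0) and a fold of 39.7 at 3125 bp downstream, in an intron of Pde6b (chr5:108430945-108431678). Its TSS was the closest one, and the DR4 shown above lay at the summit. Atp5j, coupling factor 6 of the stalk, had 31 fragments (21.1 to 44.0) 963 bp downstream, and the summit lay 263 bp upstream of Gabpa, which encodes the DNA-binding subunit of NRF2, a regulator of respiratory chain genes. Of the catalytic part, Atp5a1 (α) had 14 fragments 761 bp downstream in the promoter of Haus1 and 8 further downstream. Atp5c1 (γ) had 9 fragments 1305 bp upstream in an intron of Kin, and Atp5b (β) had its nearest TRBS at 98.5 kb. Atp5d (δ) had 8 TRBS of 8 to 29 fragments, spread from 23246 bp upstream to 22384 bp downstream, 1 of them in its own intron (11 fragments) and 1 in its own 3′ UTR (14 fragments). The 2 strongest of the 8 had 29 fragments each and lay in the promoter of Stk11 and 4969 bp from the TSS of Cirbp.

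**Figure D5:**
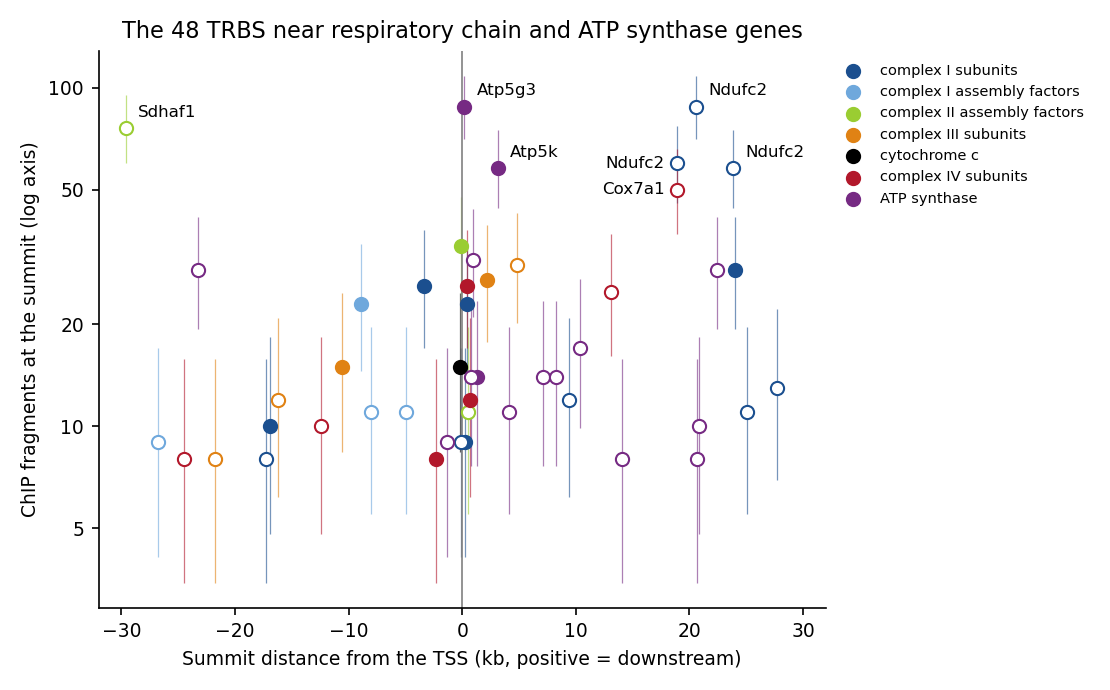
The 48 TRBS by summit distance from the TSS of the member gene (kb) and ChIP fragments at the summit (log axis), coloured by complex. Vertical bars are exact Poisson 95% intervals, filled points mark TRBS whose nearest TSS is the member gene and open points those closer to another gene; of the 7 points at 50 or more fragments, those of Atp5g3 and Atp5k are filled.

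In strength, the highest of the 48 TRBS ranked 81 in the list by fragments. Their median was 14 fragments (range 8 to 88, 95% interval of the median 11 to 25) against 17 for autosomal TRBS. Their median fold was 8.08 (range 3.57 to 53.8, interval 6.99 to 11.3) against 9.91, and both reference values lay inside the intervals. In the weakest quartile of the list by fragments lay 18 of them (37.5%, 25.2 to 51.6) against 26.1% of autosomal TRBS, and in the strongest quartile 13 (27.1%) against 24.3%. A score of at least 60 was reached by 35 of 48 (72.9%, 59.0 to 83.4) against 82.6%. The 13 TRBS below 60, the limit in the study's methods, were those of Ndufa7, Ndufab1, Ndufv3, Sdhaf2, Cox4i1, Cox4i2 and Atp5c1, the upstream ones of Cox8b and Uqcrq, the farthest of Ndufc2, the farther of Atp5a1, and 2 of Atp5d. With scores of at least 60 or 100, the ratio of the share of genes with a TRBS to that of all genes was 1.83 and 1.66.

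By position, 12 of the 48 TRBS lay in a promoter, defined as 1000 bp upstream to 100 bp downstream of the start of any annotated transcript (25.0%, 14.9 to 38.8), against 16.9% of the 2873 TRBS near any autosomal protein-coding gene. Of these 12 promoters, those of Ndufv3, Sdhaf2, Sdhaf4, Cycs, Atp5g2 and Atp5j belonged to the gene of the set, and the others to a neighbour. A further 14 lay in introns (29.2%, 18.2 to 43.2), against 45.6% of TRBS near any gene, a value above the interval. Between genes lay 18 (37.5%, 25.2 to 51.6) against 31.3%. In a 3′ UTR lay 3 (6.25%, 2.15 to 16.8) against 2.37%, and in a coding exon 1 (2.08%, 0.369 to 10.9) against 2.61%. Downstream of the TSS lay 29 of 48 (60.4%) against 53.1% of pairs over all genes.

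A DR4 was about as frequent as elsewhere, at 31.2% (15 of 48, 19.9 to 45.3) against 32.1% of autosomal TRBS, and at 10.4% against 7.27% with at most 1 mismatch. The single half-site AGGTCA occurred in 64.6% (31 of 48, 50.4 to 76.6) against 56.3%. The element GGGCGG of SP factors occurred in 45.8% (22 of 48, 32.6 to 59.7) against 18.5% of autosomal TRBS and 25.0% of those near any gene. The GC content moved with it, with a median of 55.5% against 51.2% of autosomal TRBS and 52.8% of those near any gene, and its part in the motif share was not tested. The element TCAAGGTCA of the estrogen-related receptors, which contains the half-site, was found in 2 TRBS (Atp5g3 and Ndufaf7), or 4.17% (1.15 to 14.0) against 116 of 5035 autosomal TRBS. CCGGAAGT of ETS factors was found in 1 (Atp5j), or 2.08% (0.369 to 10.9) against 1.07% of autosomal TRBS, and AAGATGGC of YY1 in 3 (Ndufs4, Atp5a1 and Atp5c1), or 6.25% (2.15 to 16.8) against 2.48%. The palindrome TTGCGCAA of C/EBP factors was found in 2 (Uqcrc1 and Cox7a1), or 4.17% (1.15 to 14.0) against 0.298%. The shares of the half-site and of ERR, ETS and YY1 elements over autosomal TRBS lay inside the intervals. That of the C/EBP palindrome lay below its interval, a contrast that rests on 2 TRBS. All motifs were searched on both strands, and such matches only describe letters in the sequence.

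Genes that act around these complexes but carry other symbols were compared next. Of 61 such genes 22 had a TRBS within 30 kb (36.1%, 25.2 to 48.6), against 17.3% of all autosomal protein-coding genes. They comprised 4 of 9 further complex I assembly genes, 2 of 6 for complex III, 6 of 22 for complex IV, 2 of 4 for the ATP synthase, 6 of 12 regulators of mitochondrial biogenesis and 2 of 7 other entry points for electrons, but not the ATP synthase inhibitor gene. Of these genes, Gabpa was counted through the TRBS already counted for Atp5j, and Tmem126a and Tmem126b shared 1 TRBS. Some were counted through weak TRBS, such as Esrra with 5 fragments and a score of 14. The share of this group was not recomputed with score or nearest-gene limits. Among the regulators, Ppargc1a, which encodes the coactivator PGC-1α, had 4 TRBS. The strongest of them had 65 fragments at 28171 bp upstream and a DR4 with 2 mismatches. Gpd2, the mitochondrial glycerol phosphate dehydrogenase, had 3 TRBS of 16 to 52 fragments, 2 of them in its introns and 1 in its promoter. Tmem186, a complex I assembly factor, had 52 fragments 300 bp upstream with a DR4 with 1 mismatch, and the complex IV factor Coa5 had 37 fragments 97 bp downstream. The highest count, 124 fragments near the complex III factor Uqcc2, lay 27220 bp upstream in an intron of Ip6k3. For comparison, 27.9% of the Slc25 carriers of the inner membrane (12 of 43, 16.7 to 42.7) and 17.9% of the mitochondrial ribosomal protein genes (14 of 78) had a TRBS within 30 kb, and 17.3% lay inside the 95% interval of either share.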

How the data were processed

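Paired-end ChIP and input reads were aligned by the authors to GRCm38 (mm10) with Bowtie2 2.3.2.2, and peaks were called in the ChIP against the input library with MACS2 2.1.1.20160309.6, per the submitters' processing notes. The deposited list gives for each of 5107 peaks its position, the MACS score (10 times the −log10 q-value), the fold (ratio of ChIP pileup to input background after adding 1), and −log10 p-values and −log10 q-values. These deposited values are the authors' own comparison of 2 libraries. The p-value was used to recover fragments, and the score to describe and filter peaks. A filter at a score of 60 is described in the study's methods, but 897 deposited peaks scored below 60, and all were kept.

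The number of ChIP fragments at a summit was recovered as the integer that gives the deposited fold and p-value. It was found for 5090 of 5107 peaks (within 0.0005 of the deposited −log10 p) and was unique for all 48 peaks reported. Total reads per library were not used here, and a count of 8 fragments, the lowest of the 48, carries a wide interval. No molecular identifiers were used, so fragments may be copies of each other.

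Genes and TSS (5′ end of the gene) came from GENCODE M21 basic, and sequences and the repeat mask from the RefSeq GRCm38.p6 assembly, whose chromosomes hold all peaks. Regions were assigned in the order promoter (1000 bp upstream to 100 bp downstream of any TSS), UTR, coding exon, intron and intergenic. Shares have 95% Wilson intervals and fragments exact Poisson intervals. No test across samples was possible with 1 library each, so no p-value is given. Genes were named when a TRBS lay within 5 kb, held a DR4, was 1 of several, or was among the 10 strongest, with isoform pairs, Sdh genes, Cyc1 and Cycs named in any case, as were up to 10 other genes of oxidative phosphorylation. Genes named beyond this rule were chosen after their values were seen. The members, lists and motifs were chosen with earlier results of these data known. Alternatives varied the score, fold, distance, TSS, edge, nearest-gene and DR4 settings. Python 3.11.15 with pandas 2.3.3, SciPy 1.17.1, pysam 0.24.0 and samtools 1.23.1 was used, and fragment recovery, pairing and motif search were tested on simulated data. The sequence of 1 element is not reported here.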

Additional observations from a re-analysis of the deposited data

How the results depend on the processing

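Of 112 values recomputed under other settings, 87 stayed within the 95% interval of the reported value (for counts, within 1.5 times), 25 moved beyond it and 0 reversed. The intervals of the complexes are wide, and values inside them still differed by over 1.5 times: complex IV was 17.6% for scores of 100 or more, complex I subunits 13.9% within 10 kb, complex III 22.2% within 10 kb and with the nearest TSS only, complex I assembly factors 62.5% within 100 kb, and the median was 23 fragments for scores of 60 or more and with the nearest TSS only. The share of genes with a TRBS was above that of all genes under each of the 8 planned settings of peak, distance and TSS, with ratios of 1.41 to 2.71. For peaks scoring 100 or more it was 19.6% (all genes 11.8%), with 25 TRBS, a median fold of 13.4 and 29 fragments, and 11.1% for complex I subunits and 12.5% for its assembly factors. Within 10 kb it was 22.7%, with 25 TRBS and 11.8% for complex IV. Within 100 kb it was 64.9%, with 148 TRBS, 55.6% for complex I, 50.0% for complex II subunits, 77.8% for complex III, 64.7% for complex IV and 77.8% for the ATP synthase. With the nearest TSS only it was 14.4%, with 16 TRBS, 11.1% for complex I subunits, 12.5% for its assembly factors, 25.0% for complex II assembly, 11.8% for complex IV and 16.7% for the ATP synthase. A DR4 was found in 10.4% of the TRBS with at most 1 mismatch and in 70.8% with at most 3, as the construction of these settings implies. Leaving out Ndufc2 and Atp5d, a setting chosen after seeing the data, left 36 TRBS with a median of 13.5 fragments and 30.6% with a DR4. No paired analysis was possible because there was 1 ChIP library and 1 input library without replicates. With 8 to 88 fragments per summit, single weak TRBS are known to within a wide interval, and occupancy cannot be told apart from features of this 1 library.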

Other observations

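The promoters of the 97 genes, taken as 250 bases before to 50 after the TSS, held the NRF1 core GCGCATGC in 11 cases (11.3%, 95% Wilson interval 6.45 to 19.2), against 3.45% of all autosomal protein-coding genes. Of these 11 genes, Cycs and Atp5k had a TRBS within 30 kb, and the others, among them Sdhb, Cox6a1 and Ndufa6, did not. Over the 97 genes 33 had one (34.0%), against 17.3% of all autosomal protein-coding genes. So few genes do not tell these shares apart. The YY1 core AAGATGGC stood in 9.28% (4.96 to 16.7) of the promoters against 2.93%, the half-site AGGTCA in 21.6% (14.6 to 30.8) against 14.8%, the cAMP response element TGACGTCA in 5.15% (2.22 to 11.5) against 2.43%, and the ETS element CCGGAAGT in 6.19% (2.87 to 12.8) against 4.80%. The all-gene shares of the half-site (at its lower end), the cAMP response element and the ETS element lay inside the intervals. The half-site was present in the promoters of 3 of the 33 genes with a TRBS (9.09%, 3.14 to 23.6). Of the 64 genes without one, 18 held it (28.1%, 18.6 to 40.1). These intervals overlapped, and the 14.8% of all genes lay inside that of the genes with a TRBS. A DR4 with at most 2 mismatches was present in the promoters of Cox7c, Cox8c, Ndufa11 and Ndufb2, or 4.12% (1.62 to 10.1) against 2.84% of all genes. None of these 4 genes had a TRBS within 30 kb, the nearest being 55.8 kb from Ndufb2. The same held for 64 of the 97 genes. The element GGGCGG was as frequent as in all genes, at 44.3% against 43.7%, and the median GC content was 56.0% against 55.3%. Differences between these shares were not tested.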
